A study of Mus musculus with 4 samples.

Results

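The genes described here build the Z-disc, the M-band and titin, the anchoring and elastic parts of the heart muscle sarcomere. They are 9 genes (Ttn, Actn2, Ldb3, Tcap, Myoz2, Csrp3, Nebl, Myom1 and Myom2), chosen by symbol for their place in the sarcomere and not by a cut on their values. They were found through the RefSeq accession that the scanner files give to each probe. All 9 were found, with 13 probes among 39417 probes analysed and 20881 genes with a symbol. All 13 probes were well above background on all 4 arrays, so no gene was lost to the filter on dim probes. RNA came from cardiomyocytes grown from CGR8, a mouse embryonic stem cell line, and was measured on 1-colour Agilent arrays. Of the 4 samples, 2 (siErbB4 replicates 1 and 2) received a small interfering RNA to Erbb4, a receptor tyrosine kinase gene, and 2 (siScr replicates 1 and 2) a scrambled RNA, in a transfection of 48 hours. All were kept in low-glucose medium with 2% serum and received the same transfection agent, Pepmute. The labels give alternative incubation times without saying which sample had which. Groups follow the sample titles, because other labels conflict: both siErbB4 samples are described as si-Scr, and ErbB5 stands in the source field of siErbB4 replicate 2. The labels do not say what a replicate number shares or that replicates were separate cultures. The p-values therefore measure only the spread between these samples, which may be technical.

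In the sarcomere, thin actin filaments are tied end to end at the Z-disc and thick myosin filaments are tied side by side at the M-band. Titin runs from one to the other as a molecular spring. Several Z-disc proteins also carry signals of stretch, and mutations in many of these genes cause human cardiomyopathy. As heart muscle cells mature in rodents, their myofibrils become better aligned and adult isoforms and late M-band proteins accumulate.

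The arrays lay on 1 slide, with 64.8% to 68.5% of probes well above background and the 75th percentile of the processed signal between 878 and 989. All 17 cardiomyocyte markers listed (such as Myh6, Tnnt2 and Actc1) were well above background on all 4 arrays. So were all 8 pluripotency markers, 10 of 11 fibroblast markers and 5 of 6 smooth muscle markers. Of 12 skeletal muscle markers, 6 (Myod1, Myog, Myf5, Pax7, Myh1 and Myh2) were not well above background on any array. Another 4 (Myh8, Myh3, Tnnt3 and Tnni2) were well above background on all 4 arrays. Erbb4 itself had processed signals of 2.83 and 15.0 on the siErbB4 arrays (replicates 1 and 2), against 9.02 and 11.9 on the siScr arrays. Its 1 probe was well above background only on siErbB4 replicate 2, so it does not check the knockdown. Levels are log2 processed signals minus the array's 75th percentile, so 0 is the 75th percentile of that array. Brightness depends on the probe as well as on the RNA, so levels are compared between arrays for 1 probe and not between genes. In RNA of whole cultures, fewer cells of a type and less RNA per cell cannot be told apart.

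Promoter windows are shown to give the sequence before the starts of genes described below, and those printed carry letters known as muscle promoter elements. They bear on no difference reported here. RefSeq (GRCm38.p6) gave 12 windows of 7 of the genes, each from 250 bases before to 50 after a gene start. Tcap and Myom2 have no entry in that table. Of the 12 windows, 2 (Ttn and Myoz2) held a MEF2 site, which 3.19% of all 32851 windows hold. A CArG box, the site of serum response factor, was in 4 windows of 3 genes (both overlapping Ldb3 windows, Myom1 and Nebl), and in 1.63% of all windows. The CATTCC motif was in 2 of 12 windows (14.7% of all), GATAA in 4 (25.4%), CANNTG in 9 (72.3%) and TATAAA in 0 (13.6%). Both strands were searched, and a match is a description of letters and not a binding site. Those below come from chr2:76982498-76982797 (minus strand), chr3:123034938-123035237 (minus strand), chr14:34588632-34588931 (minus strand) and chr17:71019307-71019606 (plus strand), and are written 5′ to 3′ with capitals marking the MEF2 site, the CArG box or CATTCC.
Ttn promoter: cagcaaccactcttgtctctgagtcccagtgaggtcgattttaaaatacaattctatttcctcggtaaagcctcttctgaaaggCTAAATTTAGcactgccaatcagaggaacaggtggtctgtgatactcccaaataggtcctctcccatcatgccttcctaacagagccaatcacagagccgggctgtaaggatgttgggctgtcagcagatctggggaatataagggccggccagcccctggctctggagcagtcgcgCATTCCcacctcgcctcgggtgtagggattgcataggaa
Myoz2 promoter: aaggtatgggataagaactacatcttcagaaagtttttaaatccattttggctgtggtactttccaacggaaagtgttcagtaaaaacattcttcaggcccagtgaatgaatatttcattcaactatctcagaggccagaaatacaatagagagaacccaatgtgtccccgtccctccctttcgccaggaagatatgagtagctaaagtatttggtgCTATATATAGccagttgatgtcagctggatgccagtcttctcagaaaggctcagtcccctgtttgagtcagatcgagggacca
Ldb3 promoter: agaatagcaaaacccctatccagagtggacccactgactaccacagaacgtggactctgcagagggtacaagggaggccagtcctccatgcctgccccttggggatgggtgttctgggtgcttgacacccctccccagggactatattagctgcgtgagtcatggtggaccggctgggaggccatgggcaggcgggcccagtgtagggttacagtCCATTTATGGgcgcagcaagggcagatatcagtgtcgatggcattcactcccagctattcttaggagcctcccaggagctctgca
Myom1 promoter: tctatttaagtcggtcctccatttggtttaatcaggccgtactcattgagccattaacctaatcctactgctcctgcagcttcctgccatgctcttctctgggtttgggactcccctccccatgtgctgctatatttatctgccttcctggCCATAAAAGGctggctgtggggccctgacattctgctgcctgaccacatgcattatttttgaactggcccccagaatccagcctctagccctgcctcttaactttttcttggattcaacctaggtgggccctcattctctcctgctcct
With the start base as 0, the MEF2 site begins at -166 in Ttn and -33 in Myoz2, and the CArG box at -35 in Ldb3 and -99 in Myom1. In Ttn the capitals that begin at 11 are CATTCC, and no 2 marked motifs overlap in these windows.

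Between siErbB4 and siScr cells none of the 9 genes passed the test. The log2 differences, siErbB4 minus siScr, ran from -0.21 for Actn2 to 0.29 for Ldb3, with a median of 0.045 beside -0.014 for all 20726 features tested. Of the 9 genes 6 were positive and 3 negative. With limma, 0 of the 9 were called at an adjusted p under 0.05, where 0% of all features were called, and 0 of the 9 had an unadjusted p under 0.05, against 365 of all features. At 2 of the 9 genes, Ldb3 and Csrp3, the siErbB4 arrays were both higher than either siScr array, as at 2704 of 20726 features. In either direction the groups did not overlap at 2 of the 9 genes and at 29.0% of all features. The adjusted limma p was 1 for each of the 9. For 1 gene alone, the lowest two-sided p open to an exact permutation test of 4 arrays is 0.333.

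**Figure D1:**
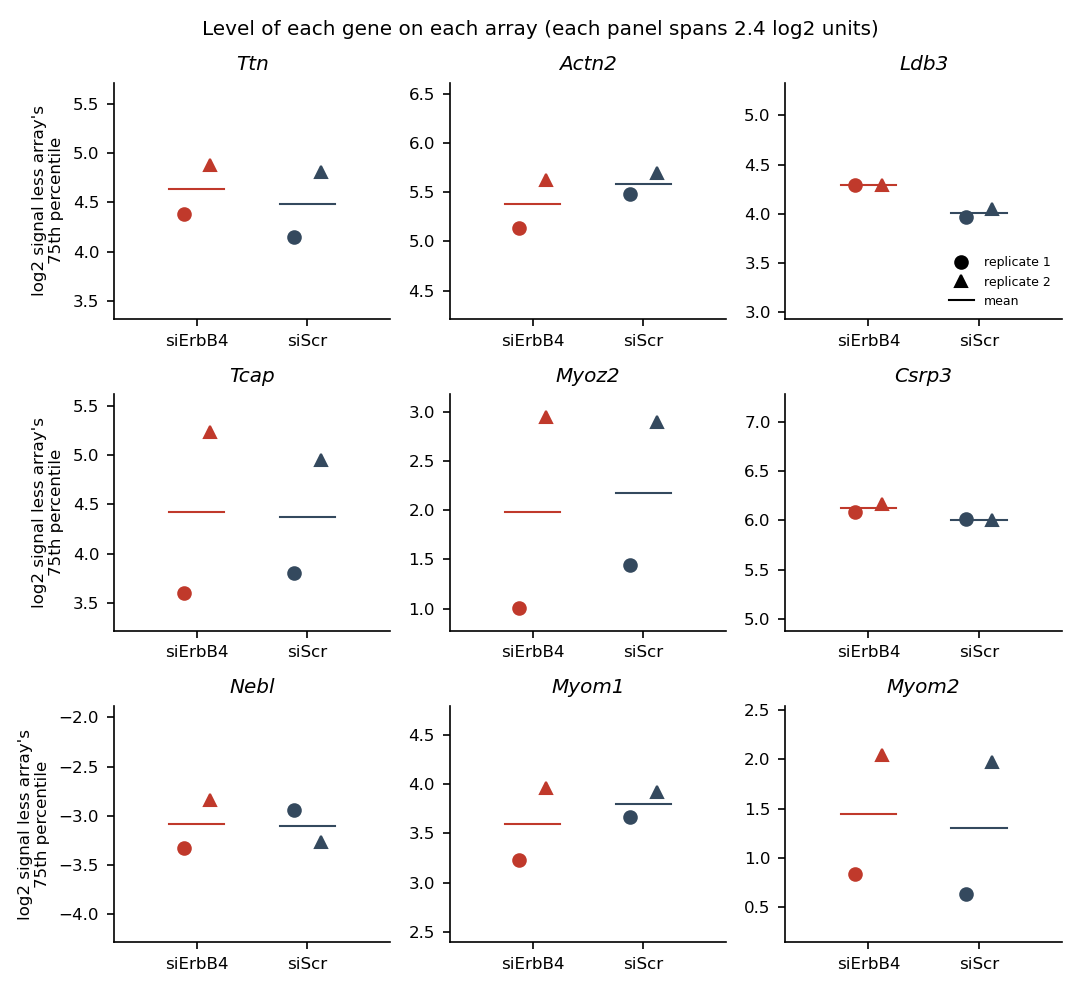
Log2 signal less the array's 75th percentile (vertical axis) of the 9 genes on each siErbB4 and siScr array. Circles are replicate 1, triangles replicate 2 and lines group means, and every panel spans the same height. Tcap, Myoz2 and Myom2 separate by replicate number (log2 differences of 1.39, 1.70 and 1.27) and not by siRNA.

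Ttn, the titin gene, was at 4.38 and 4.88 on the siErbB4 arrays (replicates 1 and 2), against 4.15 and 4.81 on the siScr arrays. The groups overlapped, and on both sides replicate 2 was the higher array. The log2 difference was 0.15 (SE 0.32, 95% interval -0.72 to 1.03). Actn2, which encodes the alpha-actinin that cross-links actin at the Z-disc, was at 5.13 and 5.62 on the siErbB4 arrays, against 5.48 and 5.69 on the siScr arrays. The lowest Actn2 array was siErbB4 replicate 1, and the difference was -0.21 (SE 0.22, interval -0.83 to 0.41). Nebl encodes nebulette, a nebulin relative that links thin filaments to the cardiac Z-disc. It was at -3.32 and -2.84 on the siErbB4 arrays and at -2.94 and -3.27 on the siScr arrays, with processed signals of 91.1 to 130.7. Its difference was 0.022 (SE 0.24, interval -0.64 to 0.68).

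Ldb3 had the lowest p of the 9 genes in this comparison. It encodes Cypher, also called ZASP, a PDZ and LIM domain protein that binds alpha-actinin. Its brighter probe was at 4.30 and 4.29 on the siErbB4 arrays, against 3.97 and 4.04 on the siScr arrays. The difference of 0.29 (SE 0.13, interval -0.067 to 0.64, 1.22-fold) had an unadjusted limma p of 0.0876. The other Ldb3 probe, to a different transcript accession, was at 2.04 and 2.05 on the siErbB4 arrays and at 2.36 and 2.00 on the siScr arrays. There the difference was -0.14 (SE 0.18), with the siErbB4 arrays between the siScr arrays, so the probes of Ldb3 disagreed in sign. Averaged over both probes the Ldb3 difference was 0.076 (SE 0.13). Csrp3, the gene of muscle LIM protein, was at 6.08 and 6.16 on the siErbB4 arrays and at 6.01 and 6.00 on the siScr arrays, a difference of 0.12 (SE 0.13, interval -0.24 to 0.47).

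Tcap, Myoz2 and Myom2 had the widest intervals of the 9 genes. Tcap encodes telethonin, which caps titin's end in the Z-disc. It gave a difference of 0.045 (SE 0.71, interval -1.92 to 2.01) and Myoz2, which encodes the calcineurin-binding Z-disc protein calsarcin-1, gave -0.19 (SE 0.86, interval -2.57 to 2.18). Myom1 encodes myomesin, the main cross-linker of the M-band, and gave -0.20 (SE 0.30, interval -1.03 to 0.62). Myom2, the gene of the related M-protein, gave 0.14 (SE 0.64, interval -1.64 to 1.92). The intervals of Tcap, Myoz2 and Myom2 include a change of 2-fold either way in this fit, which has no replicate term. Within replicate 1 the differences, siErbB4 minus siScr, were -0.20 for Tcap, -0.44 for Myoz2, -0.44 for Myom1 and 0.20 for Myom2. Within replicate 2 they were 0.29, 0.054, 0.040 and 0.078 for the same genes.

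Each array decided the sign of some of these differences. The median of the 9 was 0.29 without siErbB4 replicate 1, -0.45 without siErbB4 replicate 2, -0.31 without siScr replicate 1 and 0.33 without siScr replicate 2. Of the 9 genes, 9, 2, 3 and 6 were then positive. None of the 9 was called with any array left out. Between the same groups the 8 pluripotency markers had a median difference of 0.47 and the 10 fibroblast markers tested -0.45, with 0 called in either list. The part of other cell types in the members' differences was not tested.

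Set by replicate number, 3 of the 9 genes were called and all 3 were higher in the arrays numbered 2. This compares siErbB4 replicate 2 and siScr replicate 2 with siErbB4 replicate 1 and siScr replicate 1. The called genes were Myoz2 (3.24-fold), Tcap (2.62-fold) and Myom2 (2.41-fold). Ttn, Myom1 and Actn2 lay at 1.27 to 1.50-fold without a call, and Ldb3, Csrp3 and Nebl at 1.02 to 1.06-fold. All 9 log2 differences, replicate 2 minus replicate 1, were positive, with a median of 0.49 beside 0.019 for all features. Between replicate numbers 5.23% of all features were called, 2.89% higher and 2.34% lower. The arrays numbered 2 lay above both arrays numbered 1 at 6 of the 9 genes, beside 29.4% of all features. In either direction the replicate numbers did not overlap at 55.4% of features.

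Myoz2 was at 2.95 and 2.89 on siErbB4 replicate 2 and siScr replicate 2, against 1.00 and 1.45 on siErbB4 replicate 1 and siScr replicate 1. In processed signal these are 7238 and 6525, against 1893 and 2695. The arrays numbered 2 were close to each other and far above those numbered 1, and the log2 difference was 1.70 (SE 0.18, interval 1.23 to 2.16, adjusted limma p 0.0244). Its promoter window, shown above, holds a MEF2 site, and a link of that site to this difference was not tested. Tcap was at 5.24 and 4.95 on siErbB4 replicate 2 and siScr replicate 2, against 3.60 and 3.80 on the arrays numbered 1. The difference was 1.39 (SE 0.15, interval 0.99 to 1.80, adjusted limma p 0.0255). Within siErbB4 cells it was 1.64 and within siScr cells 1.15, so both groups showed it.

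Of the M-band genes, Myom2 was called and Myom1 was not. Myom2 was at 2.05 and 1.97 on siErbB4 replicate 2 and siScr replicate 2, against 0.84 and 0.64 on the arrays numbered 1, a difference of 1.27 (SE 0.13, interval 0.94 to 1.60, adjusted limma p 0.0223). Myom1 was at 3.96 and 3.92 on the arrays numbered 2, against 3.23 and 3.67 on siErbB4 replicate 1 and siScr replicate 1. Its difference of 0.49 (SE 0.18, interval 0.024 to 0.96) had an adjusted limma p of 0.201, and it was 0.27 without siErbB4 replicate 1. The intervals of Myom1 and Myom2 meet, and the difference between them was not tested.

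Ttn gave a difference of 0.58 (SE 0.13, interval 0.24 to 0.92, adjusted limma p 0.0821) and Actn2 0.35 (SE 0.16, interval -0.062 to 0.76, adjusted p 0.276). At both genes the arrays numbered 2 lay above those numbered 1. Actn2 was at 0.17 without siErbB4 replicate 1 and at 0.52 without siScr replicate 1. Ldb3 gave 0.037 (SE 0.17), Csrp3 0.032 (SE 0.12) and Nebl 0.077 (SE 0.21), with overlapping arrays at each. The intervals were -0.41 to 0.48 for Ldb3, -0.28 to 0.34 for Csrp3 and -0.48 to 0.64 for Nebl. Each upper bound is below the lower bounds of Tcap, Myoz2 and Myom2, though the differences between genes were not tested.

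**Figure D2:**
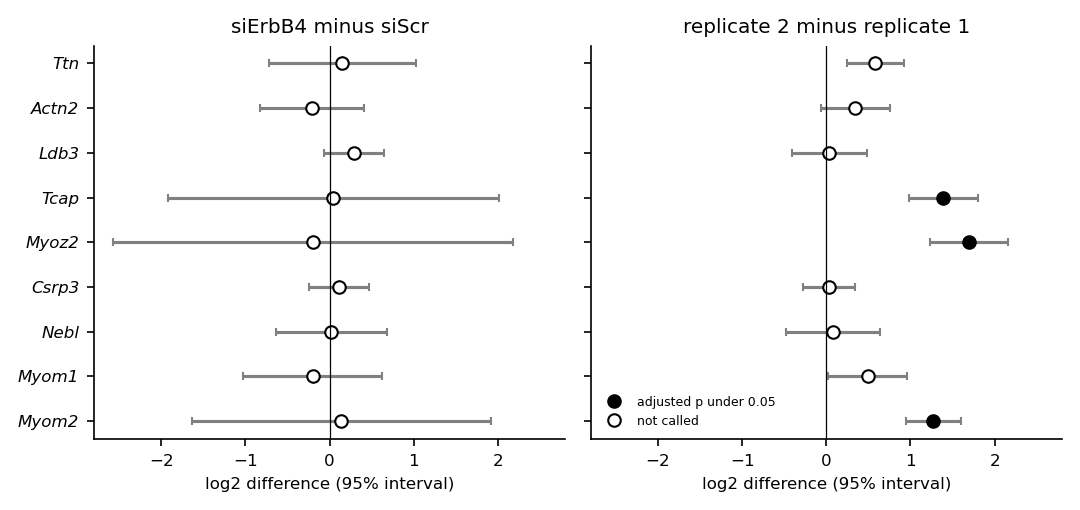
Log2 differences with 95% limma intervals (horizontal axis) of the 9 genes for siErbB4 minus siScr (left) and replicate 2 minus replicate 1 (right). Filled points have an adjusted p under 0.05. The left panel has no filled point, and the right panel has filled points for Tcap, Myoz2 and Myom2.

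The 3 calls depended on which arrays were present, and so did the calls over all features. Leaving out an array leaves 1 array under its replicate number, so here only the size of the differences is given. The log2 differences ranged from 1.25 to 1.54 for Tcap, 1.47 to 1.92 for Myoz2 and 1.17 to 1.37 for Myom2 with arrays left out. When dim probes were kept in the fit, none was called (adjusted limma p of 0.122 to 0.127), and neither was any other of 32390 features (4648 had an unadjusted p under 0.05).

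Ttn was read by 4 probes, all of them well above background. Between replicate numbers their differences were 0.58 (the probe used, SE 0.13), 0.23 (SE 0.17), 0.25 (SE 0.10) and 0.17 (SE 0.11), so all were positive and the brightest gave the largest. Between siErbB4 and siScr they were 0.15, -0.046, -0.0043 and -0.057, with SEs of 0.15 to 0.32. The mean of the 4 Ttn probes gave 0.31 between replicate numbers and 0.011 between siRNA groups. The Ldb3 probes again differed in sign between replicate numbers, at 0.037 for the brighter and -0.17 (SE 0.15) for the other.

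**Figure D3:**
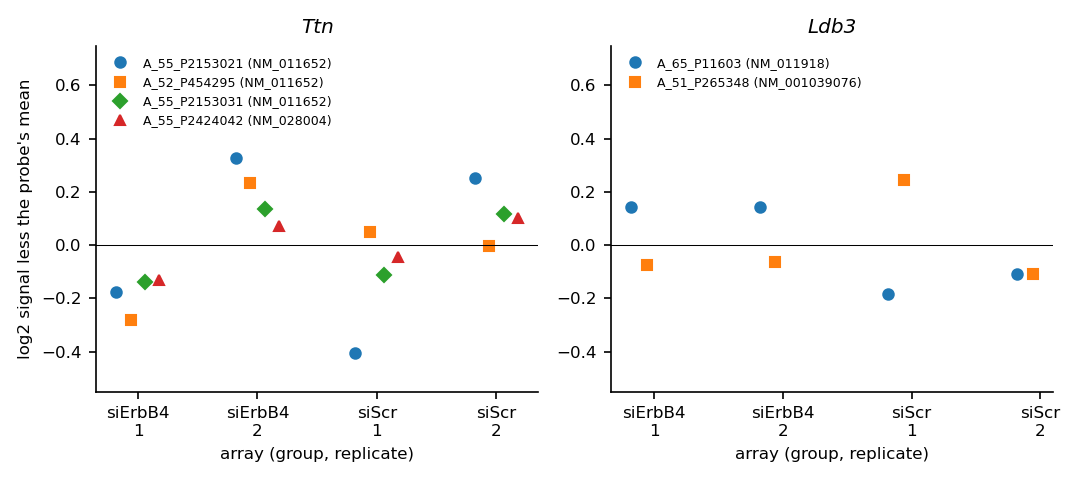
Log2 signal less each probe's own mean over the 4 arrays (vertical axis) for the 4 Ttn probes and the 2 Ldb3 probes, 1 marker shape per probe with its RefSeq accession. The Ttn probes lie highest on the arrays numbered 2, except 1 probe on siScr replicate 2, and the Ldb3 probes take opposite signs on the siErbB4 arrays and on siScr replicate 1.

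Partners of the 9 genes were taken from lists of other Z-disc genes, of titin and M-band partners, and of relatives outside the sarcomere. Between siErbB4 and siScr none of the 23, 18 and 6 genes tested in these lists was called. The genes with the lowest p were Pdlim7 (-0.45, SE 0.17), the intermediate filament gene Des (-0.44, SE 0.17) and Xirp2 (0.34, SE 0.20) of the Z-disc list. Among titin and M-band partners they were the ubiquitin ligase genes Trim55 (-0.21, SE 0.16) and Trim54 (-0.26, SE 0.23) and the autophagy receptor gene Sqstm1 (0.18, SE 0.20). Among relatives they were Csrp2 (-0.30, SE 0.26), Lpp (0.14, SE 0.16) and the non-muscle alpha-actinin gene Actn1 (-0.26, SE 0.38). The list medians were 0.0067, -0.045 and 0.018.

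Between replicate numbers the titin and M-band partners had a median difference of 0.52. Of all 20726 features 10979 were positive, and of these partners 16 of 18. Beside 2.89% of all features called higher, 3 of the partners were called, all higher in the arrays numbered 2. Among them were Ankrd2, a muscle ankyrin repeat gene whose protein binds titin (1.22, SE 0.13, adjusted limma p 0.0249), and Obsl1, a cytoskeletal adaptor gene whose protein binds titin and myomesin (0.84, SE 0.11, adjusted limma p 0.0309). The other Z-disc genes had a median of 0.095, with 13 of 23 positive, near the share of all features, and moved both ways. In this list 4 were called, beside 5.23% of all features. Higher were Myoz1, the calsarcin-2 gene of fast skeletal fibres (1.35, SE 0.12), and Nrap, a myofibril assembly gene (0.86, SE 0.12). Lower were Synpo2, an actin-binding gene also used by smooth muscle (-2.23, SE 0.18), and the LIM protein gene Pdlim3 (-0.79, SE 0.12). The adjusted limma p-values of these 4 were 0.0189 to 0.0381. All 6 relatives outside the sarcomere were negative, with a median of -0.34 and 0 called. Actn1 gave -0.71 (SE 0.16), Csrp1 -0.39 (SE 0.10) and Lasp1 -0.32 (SE 0.11).

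**Figure D4:**
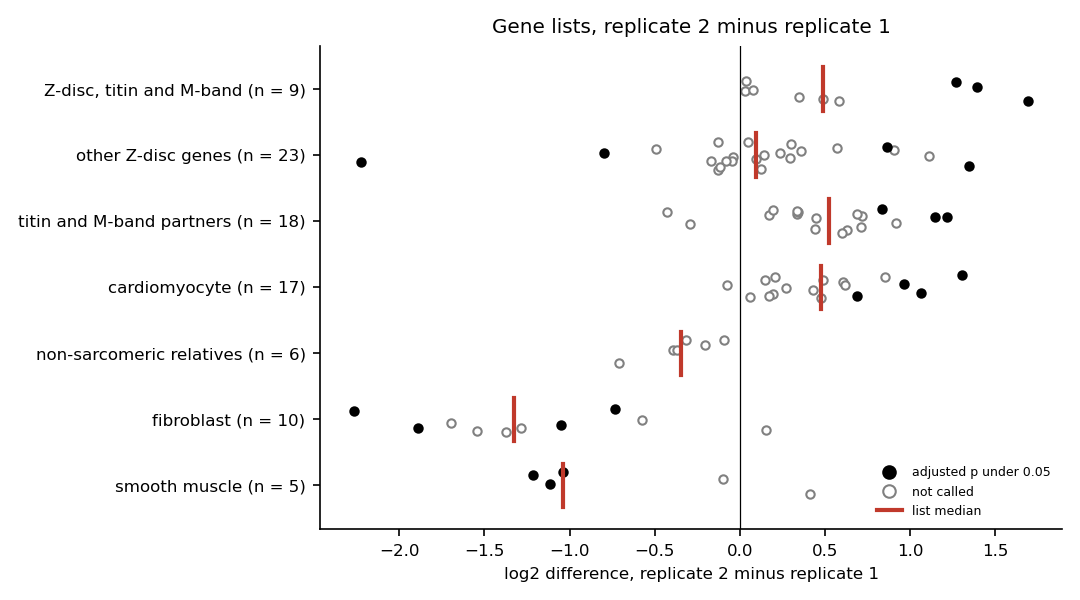
Log2 difference, replicate 2 minus replicate 1 (horizontal axis), of each tested gene in 7 lists, with filled points for an adjusted p under 0.05 and red bars for list medians. The Z-disc, titin and M-band genes have a median of 0.49, close to the 0.48 of the cardiomyocyte markers, while the fibroblast and smooth muscle medians are -1.33 and -1.04.

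Some cardiomyocyte, fibroblast and smooth muscle markers were called between replicate numbers, where 2.89% of all features were called higher and 2.34% lower. The 17 cardiomyocyte markers had a median difference of 0.48, with 16 positive and 4 called higher. Their summed level, as processed signal over the array's 75th percentile, was 2963 and 3240 on siErbB4 replicate 2 and siScr replicate 2, against 2354 and 2450 on the arrays numbered 1. Such a sum mostly follows the brightest probes of a list, such as that of Fn1 for fibroblasts or Acta2 for smooth muscle. The same sum over the 9 Z-disc, titin and M-band genes was 235 and 217, against 169 and 174. The 10 fibroblast markers tested of 11 had a median of -1.33, with 9 negative and 4 called lower. Only Ddr2 was positive (0.15, SE 0.29). The fibroblast sum over all 11 was 30.4 and 32.4, against 70.3 and 88.0. The 5 smooth muscle markers tested of 6 had a median of -1.04, with 4 negative and 3 called lower. Smtn was positive (0.41, SE 0.11), with both arrays numbered 2 above those numbered 1. The smooth muscle sum over all 6 was 241 and 248, against 429 and 541. None of the fibroblast or smooth muscle markers was below background on all 4 arrays. The part of these cell types in the members' differences was not tested.

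A scaling chosen after seeing the data centred each array on the median of the cardiomyocyte markers, which shifts every gene alike. The median of all features moved to -0.44 and that of the 9 genes to 0.028. Under this scaling 49.9% of all features were called, 4.63% of the calls being higher, against 55.4% of the calls with the 75th percentile. Myoz2, Tcap and Myom2 were called higher there (adjusted limma p of 0.0179 to 0.0211), at differences of 1.23, 0.93 and 0.81. Their unadjusted limma p was 0.00131, 0.00311 and 0.00188, above the 0.000304, 0.000386 and 0.000227 found with the 75th percentile. The adjustment is milder where more features are called, so these calls do not show that the differences outlast the scaling. Csrp3 was called lower at -0.43 (adjusted limma p 0.047), which is close to the median of all features.

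Over the 4 arrays, the profile of the members' median (each gene less its own mean) was -0.35 and 0.27 on siErbB4 replicates 1 and 2 and -0.18 and 0.23 on siScr replicates 1 and 2. On siErbB4 replicate 2 all 9 genes lay above their own mean, on siScr replicate 2 6 of 9, and on each array numbered 1 2 of 9. Genes of all the lists, cardiomyocyte markers and sarcomere partners among them, were left out of the search for near profiles. Of the 14878 named genes searched, 371 lay within a root mean square distance of 0.1 log2 units of this profile. The nearest 5 were Fig4, Idh3g, 4831440E17Rik, Pradc1 and Gnb3, at distances of 0.015 to 0.0245. Nearest to Ttn's own profile were Hectd2, Sirt3, Crb3, Cep152 and Hirip3, at 0.0136 to 0.0191, with 372 genes within 0.1. With 4 arrays such likeness is a description only.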

How the data were processed

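Expression was measured in 4 samples, 2 per siRNA group. Agilent Feature Extraction 10.7.1.1 was used, per the submitters' processing notes. The deposited intensity of each spot (processed signal) is background-subtracted and detrended, per the file headers, with no scaling between arrays. Raw median intensities of spot and background, and flags, were deposited beside it. The authors' deposited log2 table matched the scanner files' log2 values after each array's 75th percentile was taken off (correlation 1, largest difference 0.00291); its column medians were -3.84, -3.86, -3.81 and -3.83 for siErbB4 1, siErbB4 2, siScr 1 and siScr 2, so no probe was centred and the direction follows the samples.

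Of 44397 spots 1377 were controls. Spots with an outlier flag (131 to 179 on an array) were dropped, which lost 12 probes, 0 spots were saturated, and spots of a probe were averaged. A probe was kept where some siRNA group had it well above background on both its arrays (25690 probes), and 27508 probes were named through a RefSeq table of GRCm38.p6. Unnamed probes of 1 accession, and probes of 1 gene, were represented by the one with the highest mean, giving 20726 features. The array's annotation names another build, so no probe coordinates are given, and the promoter windows have those of the RefSeq table. Both comparisons used lmFit and eBayes of limma 3.58.1 (R 4.3.3) over all features, without covariates. Two-sided p-values were adjusted by Benjamini-Hochberg and called under 0.05. The fit was run on simulated data with noise drawn independently for each feature and array. That noise lacks the replicate differences that both siRNA groups share here, so the run does not check the fit for them. On the arrays the fit left 2 residual degrees of freedom. The median SE was 0.18 between siRNA groups and 0.14 between replicate numbers. The number of arrays limits the precision. The raw mean signal planned for normexp is not among the columns used here, so the raw median stood in.

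The members, lists, rule for named genes and tests were chosen with earlier results of these data known. The rule names the 9 genes with all their probes and, from each list, the called genes (otherwise the 3 with the lowest p). It also names the 5 genes nearest in profile among genes outside the lists. For 1 called gene among the titin and M-band partners, values are not reported here. Beside the lists in the report, endothelial, endoderm, pluripotency, neural and blood markers had median differences, replicate 2 minus replicate 1, of -0.46, 0.65, 0.0087, -0.22 and 1.64 over 5, 5, 8, 3 and 2 genes; between siErbB4 and siScr these were -0.50, 0.017, 0.47, -0.26 and -0.26. Smooth muscle markers had -0.19 between siErbB4 and siScr, cardiomyocyte markers -0.067, and 4 skeletal muscle markers -0.25 there and 0.29 between replicate numbers.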

Additional observations from a re-analysis of the deposited data

Results flagged for a closer look

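At 3 of the 9 genes the arrays numbered 2 were above those numbered 1 in 1 siRNA group and below them in the other. Nebl differed, as replicate 2 minus replicate 1, by 0.48 in siErbB4 and by -0.33 in siScr, so the siErbB4 value exceeded the siScr value by 0.81 on the log2 scale. Csrp3 differed by 0.079 in siErbB4 and -0.014 in siScr (0.093 between them), and Ldb3 by -0.0012 in siErbB4 and 0.075 in siScr (-0.076 between them). With 1 array per group and number, the difference between the groups was not tested.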

How the results depend on the processing

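Settings tried were normexp background correction, quantile and median scaling, no filter on dim probes, the mean of a gene's probes, the authors' deposited table, each array left out, blocks, and, chosen after seeing the data, scaling to the cardiomyocyte markers. Between siErbB4 and siScr 0 features were called under all of them except the last, with 5, and none of the 9 genes was called. Nebl turned to -0.10 with normexp. With arrays left out the members' median ranged from -0.45 to 0.33, Ttn from -0.18 to 0.48, Actn2 from -0.45 to 0.034, Tcap from -0.77 to 0.86, Myoz2 from -1.17 to 0.78, Nebl from -0.22 to 0.26, Myom1 from -0.57 to 0.16 and Myom2 from -0.53 to 0.81. With the replicate block 0 features were called and Ldb3 stayed at 0.29 (adjusted limma p 0.641), while the SEs of Tcap, Myoz2 and Myom2 were 0.16, 0.17 and 0.12, against 0.71, 0.86 and 0.64 without it. Across features the replicate differences of both groups correlated at 0.679, but the labels tie same-numbered samples to nothing and there are 2 pairs, so the number is not treated as a pairing.

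Between replicate numbers 1084 features were called, 1873 with normexp, 0 without the filter (4648 at an unadjusted p under 0.05), 10351 scaled to the cardiomyocyte markers and 0 to 1539 with arrays left out. With the siRNA group as a block there were 1516. The members' median was 0.35 with the mean of probes, 0.028 scaled to the cardiomyocyte markers and 0.27 to 0.52 with arrays left out. Under quantile scaling Ldb3 was -0.0084 and Csrp3 -0.094, and Ldb3 was -0.067 with the mean of probes. Scaled to the cardiomyocyte markers, Actn2 was -0.12, Ldb3 -0.43, Csrp3 -0.43 and Nebl -0.39. With arrays left out Ldb3 ranged from -0.13 to 0.20, Csrp3 from -0.049 to 0.11, Actn2 from 0.17 to 0.52, Myom1 from 0.27 to 0.71 and Nebl from -0.14 to 0.29. With normexp Ttn was called at 0.56 (adjusted limma p 0.0265). For these changes the cause was not tested.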
